A study of Homo sapiens with 18 samples.

Results

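The genes described here are the writers, erasers and readers of methylation on lysine 4 of histone H3 (H3K4). They are 36 genes chosen by name, and all 36 were found by symbol among the 14177 genes of the deposited RNA table. They comprise 6 catalytic subunits of the SET1 and KMT2 complexes, 4 core subunits that these complexes share, 9 subunits found in some complexes only, 7 demethylases and 10 readers. The study, whose title names UBR7 as a chaperone of histone H3, used HEK293T, a widely used human cell line that grew out of embryonic kidney. RNA-seq was made from 3 libraries of UBR7KO cells, in which CRISPR-Cas9 was used against UBR7, and from 3 libraries of parental cells. Open chromatin was mapped by ATAC-seq, in which a transposase cuts accessible DNA, in 2 UBR7KO and 2 parental libraries. ChIP-seq for GFP was made in 1 library, beside 1 input, from HEK293T cells in which UBR7 was tagged with GFP at its own locus. The 6 CUT&RUN samples for trimethylated H3K4 were not analysed here. No treatment was labelled in any group, and all groups grew in the same serum-containing medium.

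The UBR7KO RNA libraries came from line KO1 (KO1-1 and KO1-2) and from line KO2 (KO2-1). Date codes paired KO1-1 with parental 1 and KO1-2 with parental 2, and the undated KO2-1 and parental 3 were taken as the third pair. Line KO2 thus rests on 1 library, and whether the lines are clones and whether the libraries are separate cultures is not stated, so p-values measure only the spread between these libraries. Each library held between 22153291 and 29811908 reads. All 8 listed features of HEK293T cells were in the table, with summed levels of 747 to 1071 CPM (reads of a gene scaled to a fixed library total) in UBR7KO libraries and 675 to 1073 CPM in parental libraries. Of the listed markers of other cell types, 3 of 6 for fibroblasts were in the table, at 7.35 to 15.0 CPM in UBR7KO libraries and 14.2 to 21.3 CPM in parental libraries, and their part in the results was not tested. The blood list had 1 of 6 genes in the table, and the lists for keratinocytes and hepatocytes had none.

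Methyl groups are added to H3K4 by the SET1 and KMT2 enzymes, which work only weakly alone and gain activity from the shared WDR5, RBBP5, ASH2L and DPY30 subunits. Trimethylation by SETD1A, SETD1B, KMT2A and KMT2B is typical of active promoters, whereas KMT2C and KMT2D mainly monomethylate H3K4 at enhancers. The KDM1 and KDM5 enzymes remove the marks, and readers such as the PHD fingers of the ING proteins, BPTF and TAF3 bind trimethylated H3K4 and bring acetyltransferases, deacetylases, remodelers or TFIID to promoters. UBR7 itself carries a UBR box and a PHD finger.

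UBR7, the targeted gene, was at 27.0 CPM in KO1-1, 26.3 CPM in KO1-2 and 64.5 CPM in the library labelled KO2-1, against 55.0, 62.2 and 62.2 CPM in parental 1, 2 and 3. Both KO1 libraries were below every parental library, and the library labelled KO2-1 was above all of them. The group means were 39.3 ± 22 CPM in UBR7KO libraries and 59.8 ± 4.2 CPM in parental libraries (SD, n = 3 each), and p was 0.4 in an exact two-sided permutation test, which cannot go below 0.1 with 3 libraries a group. In KO1 against parental libraries of the same date its log2 change was −1.10 (limma adjusted p = 1.56e-05). Reads over the whole gene do not show whether an edit stops its protein, so the label of KO2-1 can be checked no further here. In these bulk libraries, fewer cells expressing a gene and less of its RNA per cell cannot be told apart.

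GFP-UBR7 peaks lay at the starts of 19 of the 36 genes (52.8%), against 24.4% of all 14177 genes of the RNA table. A peak was counted where any base of it fell within 1000 bases of the annotated start, the outermost start of the gene in the table, in the GRCh37-type coordinates of the files. The authors' peaks come from 1 ChIP library, and the labels of the input library name the same peak list, so these shares have no replicate error and no test. Among the genes with an ATAC peak at the start in all 4 ATAC libraries, 13 of 25 H3K4 methylation genes (52.0%) had a GFP-UBR7 peak, against 30.9% of all such genes. Here and for the ATAC peaks below, all genes were not matched to the 36 for RNA level or promoter sequence. The part of these in the differences was not tested. The authors' score of a peak has no stated scale and was used only to rank the 5895 peaks of the list. The score at these 26 peaks ran from 50.62 to 493.95, with a median of 72.6.

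Promoter sequence is shown for the genes whose GFP-UBR7 peak reached into the window of 250 bases before to 50 bases after the start. There were 9 such genes, KMT2A, RBBP5, HCFC1, BPTF, SETD1A, NCOA6, TAF3, PAXIP1 and SETD1B, and RefSeq promoters of build GRCh38.p14 were at hand for KMT2A, RBBP5, SETD1A and TAF3. KDM5B was added after its values were seen, because its RNA was called in KO1 and in the comparison of the KO2 pair with the KO1 pairs. Capitals mark matches on either strand to a GC box with the letters GGGCGG, to the 5 letters of a CCAAT box, to an ETS motif with the letters CCGGAAG, or to a TATA box with the letters TATAAA, and overlapping matches run together. Each sequence is written 5′ to 3′ along its gene. The starts used by RefSeq were not matched to those of the peak files, which use another build, so the peaks are not placed on these letters.
KMT2A promoter, chr11:118436242-118436541 (plus strand): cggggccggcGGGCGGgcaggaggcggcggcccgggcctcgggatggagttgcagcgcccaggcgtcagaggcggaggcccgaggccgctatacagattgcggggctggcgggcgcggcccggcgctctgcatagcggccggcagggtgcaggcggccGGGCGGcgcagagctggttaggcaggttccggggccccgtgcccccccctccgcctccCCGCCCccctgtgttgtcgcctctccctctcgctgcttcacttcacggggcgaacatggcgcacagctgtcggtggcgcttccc
RBBP5 promoter, chr1:205121929-205122228 (minus strand): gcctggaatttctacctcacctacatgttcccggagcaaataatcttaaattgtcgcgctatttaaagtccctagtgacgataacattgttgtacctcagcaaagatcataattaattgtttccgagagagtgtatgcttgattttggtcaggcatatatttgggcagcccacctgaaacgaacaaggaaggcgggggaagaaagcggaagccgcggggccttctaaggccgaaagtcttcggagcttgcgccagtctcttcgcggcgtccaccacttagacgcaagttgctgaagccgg
SETD1A promoter, chr16:30957504-30957803 (plus strand): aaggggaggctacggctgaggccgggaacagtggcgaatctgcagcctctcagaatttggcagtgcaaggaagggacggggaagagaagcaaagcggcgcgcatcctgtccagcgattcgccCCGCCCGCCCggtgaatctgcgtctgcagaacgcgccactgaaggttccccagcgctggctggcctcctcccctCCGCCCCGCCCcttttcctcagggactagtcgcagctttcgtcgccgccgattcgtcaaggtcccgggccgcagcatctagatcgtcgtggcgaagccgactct
TAF3 promoter, chr10:7818255-7818554 (plus strand): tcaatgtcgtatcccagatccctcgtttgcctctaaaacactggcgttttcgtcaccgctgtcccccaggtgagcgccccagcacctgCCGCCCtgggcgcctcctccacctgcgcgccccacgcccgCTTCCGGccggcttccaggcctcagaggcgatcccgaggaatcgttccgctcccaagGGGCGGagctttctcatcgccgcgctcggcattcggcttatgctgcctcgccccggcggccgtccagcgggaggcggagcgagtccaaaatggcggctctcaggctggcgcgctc
KDM5B promoter, chr1:202808372-202808671 (minus strand): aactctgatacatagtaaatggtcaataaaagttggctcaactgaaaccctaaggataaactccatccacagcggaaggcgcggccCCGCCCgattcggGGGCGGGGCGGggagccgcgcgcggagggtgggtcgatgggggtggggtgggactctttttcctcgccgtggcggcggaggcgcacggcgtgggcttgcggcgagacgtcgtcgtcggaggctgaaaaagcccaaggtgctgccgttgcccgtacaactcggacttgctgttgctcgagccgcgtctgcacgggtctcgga

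The KMT2A window held 76.3% G and C, 36 CpG dinucleotides and 3 GC boxes. The RBBP5 window was poorer, with 49.3% G and C, 18 CpG dinucleotides and none of the 4 motifs. SETD1A had 4 GC boxes, TAF3 had 2 GC boxes and 1 ETS motif, and KDM5B had 3 GC boxes. Over the 28 H3K4 methylation genes with a RefSeq promoter, 19 (67.9%) held a GC box, against 44.6% of all 27326 RefSeq promoters, taking the first that is listed for each gene. An ETS motif stood in 7 (25.0%) of the 28, against 10.7% of all promoters. A CCAAT box stood in 6 (21.4%), against 35.7%, and a TATA box in none, against 11.9%. The median number of CpG dinucleotides was 33 in the 13 promoters of genes with a GFP-UBR7 peak at the start and 34 in the 15 of genes without one, against 14 over all promoters. The GC box was in 9 of the 13 with a peak and 10 of the 15 without. The 27326 promoters were not limited to genes of the RNA table, as the 28 are. The part of this in the differences was not tested.

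Of the catalytic subunits, 5 of 6 had a GFP-UBR7 peak at the start. KMT2A, the methyltransferase of HOX gene promoters that is rearranged in leukaemia, carried the highest peak of the whole set. Its score of 493.95 had rank 11 of 5895, and the peak ran from position −616 to position 44 relative to the start (chr11:118306589-118307249). KMT2D, which methylates enhancers, had a peak with a score of 143.21 that ended at position −906. KMT2C, its paralog, had one with a score of 76.56, and SETD1A and SETD1B, the SET1-type enzymes, had 2 peaks each, with highest scores of 75.68 and 55.48. KMT2B, the paralog of KMT2A, had no peak within 1000 bases, and its nearest was 15153 bases away.

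Among the shared core subunits, RBBP5, a WD40 protein that contacts the enzyme, had a peak with a score of 217.35 (rank 125) from position −512 to position −100. ASH2L, which with RBBP5 raises the activity of the enzyme, had a low one at 52.33. WDR5 and DPY30 had none within 1000 bases. Of the complex-specific subunits, 6 of 9 had a peak. They were PAGR1, a partner of PAXIP1 in the KMT2C and KMT2D complexes, with a score of 159.25, HCFC1, a host cell factor found with SET1 and KMT2A complexes, with 109.46, PAXIP1 with 97.18, the H3K27 demethylase KDM6A with 80.68, the coactivator NCOA6 with 69.48, and PSIP1, which tethers menin and KMT2A to chromatin, with 52.77. MEN1, CXXC1 and WDR82 had none.

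Of the demethylases 2 of 7 had a GFP-UBR7 peak, KDM5B and KDM2B. KDM5B, which removes methyl groups from trimethylated H3K4, had a score of 246.87 (rank 90), and its peak ran from position 692 to position 1235 (chr1:202777363-202777906). KDM2B, which binds unmethylated CpG islands, had a score of 50.62. Of the readers 4 of 10 had a peak. The highest was at SPIN1, a Tudor-domain reader, with 123.18, followed by BPTF, the large subunit of the NURF remodeler, with 105.63, then ING5 with 81.32 and TAF3, a TFIID subunit, with 57.96. The middle of 13 of the 26 peaks lay before the start and that of 13 after it, and 3 peaks covered the start base itself.

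**Figure D1:**
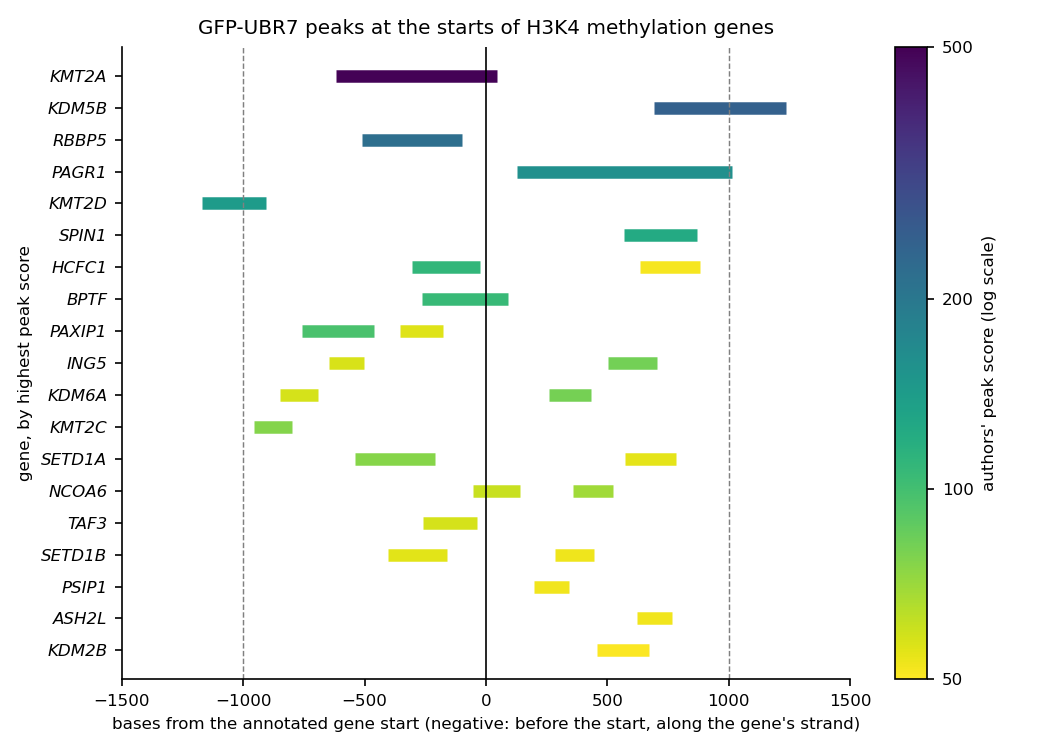
Authors' GFP-UBR7 peaks (bars, coloured by the authors' score on a log scale) within 1000 bases of the annotated start of 19 H3K4 methylation genes, by distance from the start in bases along the gene's strand (1 ChIP library). KMT2A has the highest score, 493.95, and the peaks lie on both sides of the starts.

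Open chromatin was called at most starts in both groups. ATAC peaks were found at 30 and 33 of the 36 starts in UBR7KO libraries 1 and 2, against 25 and 32 in parental libraries 1 and 2. The share of all 14177 genes with such a peak was 69.3% and 82.1% in the UBR7KO libraries, against 54.5% and 79.7% in the parental libraries. The authors called 15310 and 45920 peaks in the UBR7KO libraries, against 10507 and 38529 in the parental libraries, and the counts at these starts were lower in the libraries with fewer peaks. The part of the peak number in these counts was not tested. All 4 libraries had a peak at 25 of the 36 starts (69.4%), against 51.9% of all genes. The code of the library labelled KO2-1 also stands in the labels of both UBR7KO ATAC libraries, and no label names the line used.

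**Figure D2:**
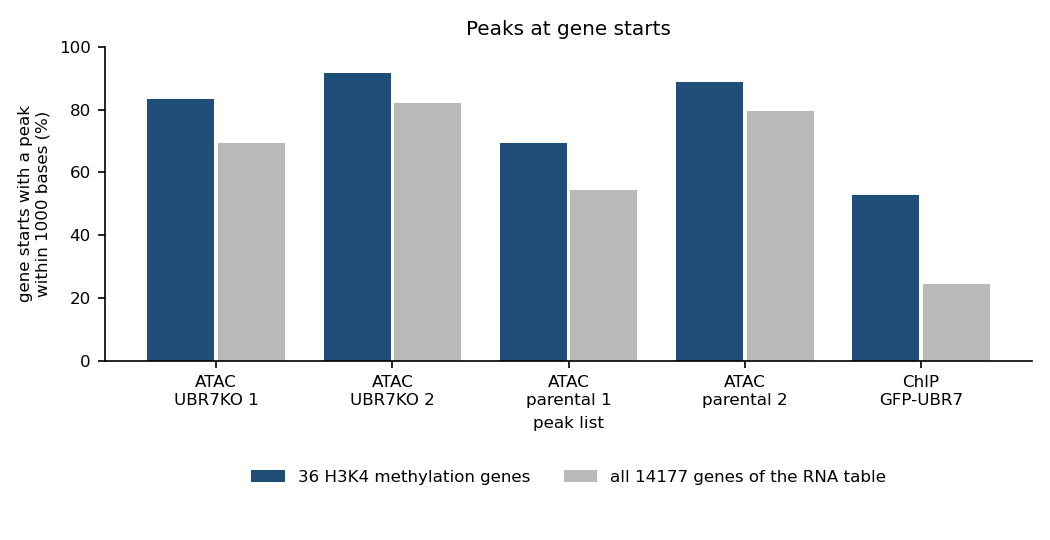
Share of gene starts with an authors' peak within 1000 bases (%), for the 36 H3K4 methylation genes (dark bars) and for all 14177 genes of the RNA table (grey bars), in 4 ATAC libraries and 1 GFP-UBR7 ChIP library. The dark bar is the higher one in each list, at 52.8% against 24.4% for GFP-UBR7.

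No ATAC library had a peak within 1000 bases of the start of CHD1, a chromatin remodeler, of KDM5B, or of PHF8, a demethylase of H3K9 that binds H3K4me3. The nearest peak to the KDM5B start was 1242 and 1105 bases away in UBR7KO 1 and 2, against 52105 and 1095 bases in parental 1 and 2. For PHF8 the nearest peak was 3953 and 4049 bases away in UBR7KO 1 and 2, against 4150 and 4078 in parental 1 and 2. These distances are from the annotated start, and the start that these cells use is not shown. SETD1B had a peak in UBR7KO 2 only. KDM5A and KDM2B had one in UBR7KO 2 and parental 2, the libraries with the larger peak lists. DPY30, KDM5C, KMT2C, PAGR1 and SETD1A were missed in parental 1 alone. ING3, which directs the NuA4 acetyltransferase to H3K4me3, had the highest −log10 q of the 36 starts in UBR7KO 1 and parental 1 but not in the other libraries, at 18.3 and 5.59 in UBR7KO 1 and 2, against 17.3 and 3.26 in parental 1 and 2.

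Over all 6 RNA libraries none of the 36 genes was called as different between UBR7KO and parental cells. The test was limma on log2(CPM + 1) with Benjamini-Hochberg adjustment over 13697 genes, those with more than 1 CPM in 3 or more libraries, at an adjusted p under 0.05. All 36 genes passed that filter on low values. The same test called 0% of all genes tested in either direction, with 70 genes and none of the 36 at an unadjusted p under 0.05. DESeq2 called 7 genes and edgeR's quasi-likelihood test none, with no H3K4 methylation gene in either. The median log2 change of the 36 genes was −0.00, with 18 positive and 18 negative, against 0.01 over all genes. The changes ran from −0.27 for BPTF to 0.24 for ING1. None of the 36 had UBR7KO and parental libraries that did not overlap, against 2.48% of all genes tested. The 95% interval of the change lay within 2-fold in both directions for 34 of the 36 genes and within 1.5-fold for 15, the exceptions at 2-fold being PSIP1 and ING4. In the authors' deposited table of the same comparison the lowest p of the 36 was 0.390, for BPTF, with an adjusted p of 1.00.

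The groups were next compared within date pairs. When date pairs entered the fit as blocks, the 95% interval lay within 1.5-fold for 35 of the 36 genes, and again no gene of the table was called. With TMM scaling added, the block fit called 4 of all genes and none of the 36. Like the fit above, it takes the change as the same in both lines, so opposite changes cancel in its intervals. KDM5B changed by 0.42, 0.45 and −0.36 in the KO1-1, KO1-2 and KO2-1 pairs, and ING5 by −0.36, −0.33 and 0.47. Of the 36 genes BPTF alone had an unadjusted p under 0.05 in the block fit without TMM scaling, against 755 of all 13697 genes tested. BPTF was at 187, 257 and 167 CPM in KO1-1, KO1-2 and the library labelled KO2-1, against 218, 289 and 224 CPM in parental 1, 2 and 3. It was lower in UBR7KO in each pair, while the groups as a whole overlapped. The blocked log2 change was −0.27 (SE 0.11, limma adjusted p = 0.853). Genes within 5 Mb of BPTF on chromosome 17 had median log2 changes of 0.02, 0.12 and −0.34 in the KO1-1, KO1-2 and KO2-1 pairs, and the part of the region in the value of the undated pair was not tested. KDM2A, which demethylates H3K36 and binds CpG islands, was the other gene with a lower level in all 3 pairs, and no gene was higher in all 3. Over all genes tested, 27.0% differed in 1 direction in all 3 pairs.

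**Figure D3:**
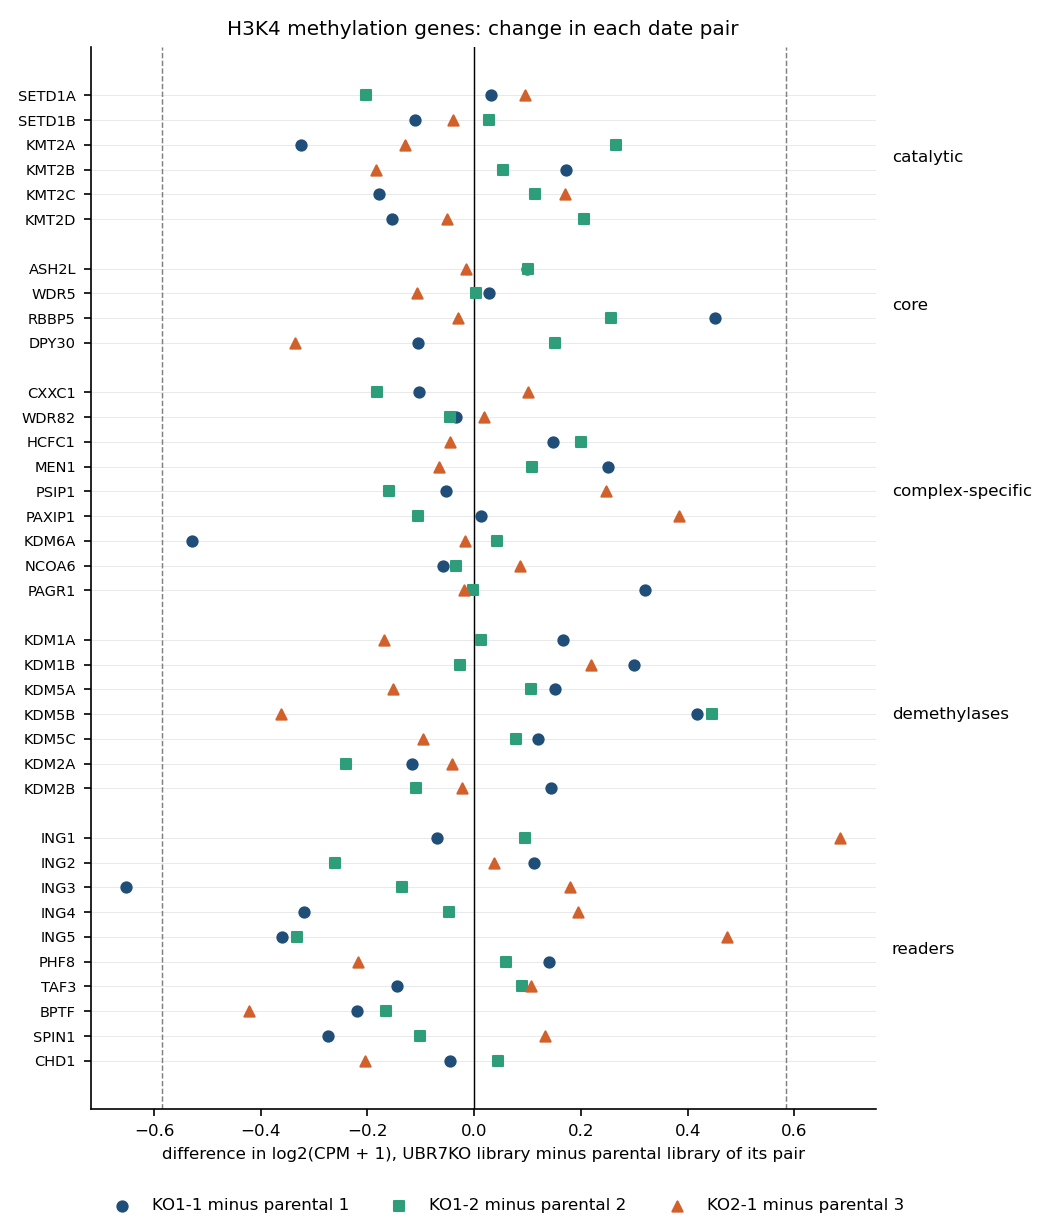
Difference in log2(CPM + 1) between each UBR7KO library and the parental library of its pair, for the 36 H3K4 methylation genes by role (circles KO1-1 minus parental 1, squares KO1-2 minus parental 2, triangles KO2-1 minus parental 3; dashed lines mark 1.5-fold). ING1 in the KO2-1 pair (0.69) and ING3 in the KO1-1 pair (−0.65) are the values outside the dashed lines.

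In line KO1 against parental cells of the same date, KDM5B was the 1 gene of the 36 called higher, and none was called lower. This fit holds 4 libraries and has 1 residual degree of freedom before the spread is shared over genes. The background of this comparison was 2.23% of genes called higher and 1.36% called lower, so 1 of 36 is near it. KDM5B (ENSG00000117139, chr1:202696526-202778598, minus strand) was at 141 and 140 CPM in KO1-1 and KO1-2 and at 79.4 CPM in the library labelled KO2-1, against 105, 102 and 102 CPM in parental 1, 2 and 3. Both KO1 libraries lay above, and the library labelled KO2-1 below, the 3 parental libraries. The group means were 120 ± 35 CPM in UBR7KO libraries and 103 ± 1.5 CPM in parental libraries (SD, n = 3 each). In the dated pairs its log2 change reached 0.43 (SE 0.12, limma adjusted p = 0.0408). The size was similar with TMM scaling (0.40), edgeR's quasi-likelihood test (0.40) and DESeq2 (0.40), but the adjusted p was then 0.0890, 0.0792 and 0.282, so the call rests on the scaling and the tool. It was also lost without the date block. Leaving out 1 of the 4 libraries leaves no residual degree of freedom for the block, so those fits also dropped it and do not show the effect of a library alone (changes of 0.41 to 0.45, adjusted p of 0.999 to 1).

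The 66 tested genes within 5 Mb of KDM5B, RBBP5 among them, had median log2 changes of 0.24 and 0.35 in the KO1-1 and KO1-2 pairs and −0.04 in the KO2-1 pair, against 0.08, 0.17 and −0.07 over chromosome 1. Of these neighbours 5 were called higher in KO1 and none lower. The part of the region in the KDM5B change was not tested. RBBP5 lies near it (chr1:205055270-205091143, minus strand) and was the other gene with an unadjusted p under 0.05 for a higher level. At that threshold 2 of the 36 genes were higher, against 1471 of all 13697 genes tested. RBBP5 was at 74.0, 73.3 and 67.4 CPM in KO1-1, KO1-2 and the library labelled KO2-1, against 53.9, 61.2 and 68.9 CPM in parental 1, 2 and 3. The KO1 libraries were above every parental library, and the library labelled KO2-1 fell between parental 2 and parental 3. The log2 change in the dated pairs was 0.35 (SE 0.12, limma adjusted p = 0.113), beside regional medians of 0.25 and 0.37.

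The other demethylases gave changes of −0.18 (KDM2A) to 0.14 (KDM1B) in the dated pairs, with adjusted p of 0.505 or more. KDM1A, the LSD1 demethylase, was at 223, 209 and 223 CPM in KO1-1, KO1-2 and the library labelled KO2-1, against 199, 207 and 251 CPM in the parental libraries. KDM5A and KDM5C, the paralogs of KDM5B, had log2 changes of 0.13 and 0.10 (limma adjusted p = 0.644 and 0.746). KDM5A overlaps CCDC77 and KDM2B overlaps RNF34 on the opposite strand, and the strand setting of the counting is not stated, so reads of these pairs may not be told apart.

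Among the readers, ING3 and ING5 had unadjusted p-values under 0.05 for a lower level in KO1 and were not called. At that threshold 2 of the 36 genes were lower, against 775 of all 13697 genes tested. ING5, a subunit of KAT6 and KAT7 acetyltransferase complexes (ENSG00000168395, chr2:242641450-242668893, plus strand), was at 25.9, 21.0 and 33.2 CPM in KO1-1, KO1-2 and the library labelled KO2-1, against 33.5, 26.6 and 23.6 CPM in parental 1, 2 and 3. Each KO1 library was below its parental library, and the library labelled KO2-1 was above its own. The change in the dated pairs was −0.35 (SE 0.14, limma adjusted p = 0.200). ING3 had a log2 change of −0.39 (SE 0.15, limma adjusted p = 0.178), most of it in the first pair, with 21.0 CPM in KO1-1 against 33.6 CPM in parental 1, and 20.7 CPM in KO1-2 against 22.8 CPM in parental 2.

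The change in the KO2 pair was then compared with that in the KO1 pairs. This fit has 1 residual degree of freedom before the spread is shared over genes, and it cannot part the line from the undated preparation. At an unadjusted p under 0.05 it had 3 of the 36 genes higher and 1 lower, against 862 higher and 1470 lower of all 13697 genes. After adjustment it called 2 of the 36, ING5 higher and KDM5B lower, against a background of 3.32% of genes called lower and 1.71% called higher. That is 1 of the 36 in each direction, near the background. For KDM5B the difference of the log2 changes was −0.79 (SE 0.20, limma adjusted p = 0.0193), from −0.36 in the KO2-1 pair and 0.42 and 0.45 in the KO1 pairs. For ING5 it was 0.82 (SE 0.24, limma adjusted p = 0.0477), from 0.47 in the KO2-1 pair and −0.36 and −0.33 in the KO1 pairs. DESeq2 called neither, with adjusted p of 0.215 and 0.287. Neighbours of ING5 within 5 Mb had median changes of −0.05, 0.04 and 0.14 in the KO1-1, KO1-2 and KO2-1 pairs. UBR7 itself differed by 1.15 (limma adjusted p = 0.00176) between the lines.

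Between the library labelled KO2-1 and parental 3, the 1 gene of the 36 with at least a 1.5-fold difference was ING1, against 8.53% of all genes tested. This comparison has 1 library a group and no test. ING1, the SIN3 complex reader of H3K4me3 (chr13:111365083-111373421, plus strand), was at 11.6, 17.9 and 17.9 CPM in KO1-1, KO1-2 and the library labelled KO2-1, against 12.2, 16.7 and 10.8 CPM in parental 1, 2 and 3. The undated pair differed by 0.69 in log2(CPM + 1), while the dated pairs differed by −0.07 and 0.09. The median change of its neighbours on chromosome 13 was 0.47 in the undated pair and 0.01 and 0.09 in the dated pairs, and the part of the region was not tested. ING1 overlaps CARS2 on the opposite strand. No gene of the 36 differed by 1.5-fold in 1 direction in both dated pairs, against 1.61% of all genes tested.

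**Figure D4:**
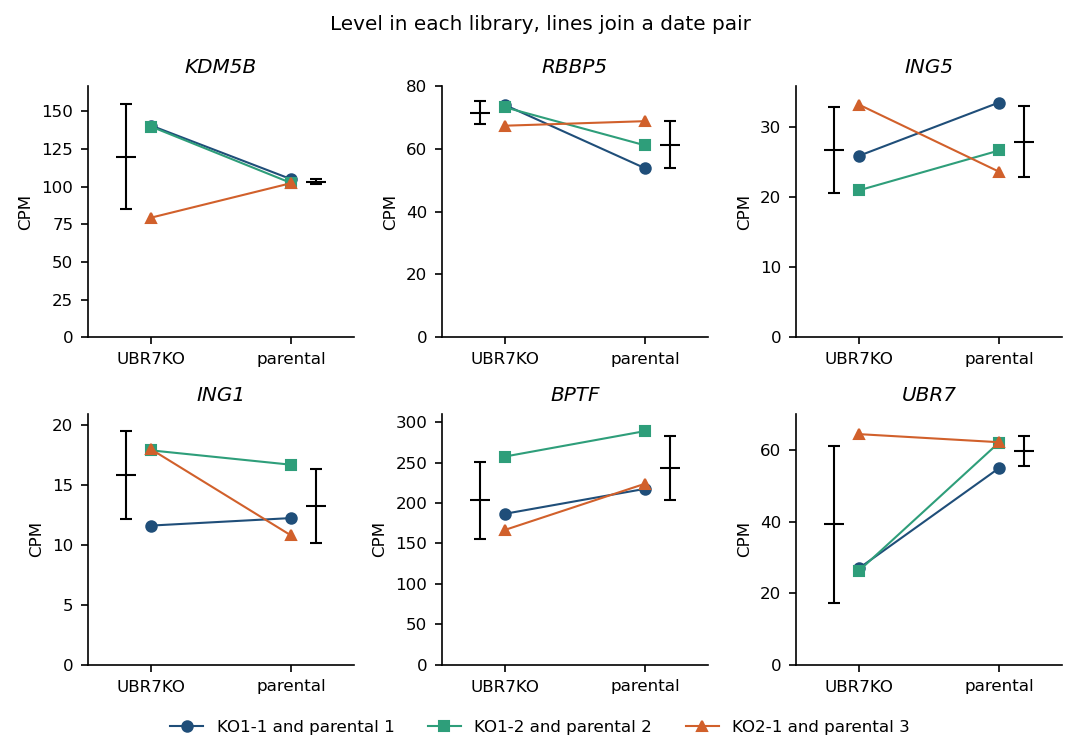
CPM in each library (UBR7KO left, parental right; lines join the libraries of a date pair) with the mean and SD of each group as black bars (n = 3), for 5 H3K4 methylation genes and UBR7. KDM5B is higher in both KO1 libraries (141 and 140 CPM) and lower in the library labelled KO2-1 (79.4 CPM) than in parental libraries (102 to 105 CPM), and BPTF is lower in UBR7KO in all 3 pairs.

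The catalytic and complex-specific subunits gave no call in any of the comparisons of UBR7KO with parental cells. KMT2A had the lowest p of the catalytic subunits over 6 libraries, with a limma adjusted p of 1.00. It was at 115, 178 and 78.8 CPM in KO1-1, KO1-2 and the library labelled KO2-1, against 144, 148 and 86.3 CPM in parental 1, 2 and 3. Both undated libraries were low, and UBR7KO was lower than parental in the KO1-1 and KO2-1 pairs and higher in the KO1-2 pair. KDM6A had the lowest p of the complex-specific subunits (limma adjusted p = 1.00), with 54.0, 59.8 and 48.4 CPM in KO1-1, KO1-2 and the library labelled KO2-1, against 78.3, 58.0 and 49.0 CPM in parental 1, 2 and 3. The parental 1 library stood above the other 5, and the groups overlapped. Over these 15 genes the change in the dated pairs ran from −0.24 for KDM6A to 0.18 for MEN1, the menin scaffold of the KMT2A and KMT2B complexes. The 19 genes with a GFP-UBR7 peak at the start had a median change of −0.03 in the dated pairs, with KDM5B highest and ING5 lowest, and the 17 without one had a median of 0.02.

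The levels were also compared between the date pairs, a comparison added after the data were seen. An F test over the 3 pairs in limma, with UBR7KO in the model, called 18 of the 36 genes, against 49.2% of all genes tested. The share of 50.0% in this fit is near the background. Called genes made up 8 of 9 complex-specific subunits, 3 of 6 catalytic subunits, 5 of 10 readers, 1 of 4 core subunits and 1 of 7 demethylases. The pairs differ in date and, for the undated pair, perhaps in preparation, and these cannot be told apart.

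PSIP1 was at 179, 534 and 326 CPM in KO1-1, KO1-2 and the library labelled KO2-1, against 186, 596 and 274 CPM in parental 1, 2 and 3. Each UBR7KO library followed the parental library of its pair, and the second dated pair was high (limma F test adjusted p = 0.000656). PSIP1 overlaps SNAPC3 on the opposite strand. ING4, a reader in KAT7 complexes, had the widest range of the 36 genes, at 20.2, 10.3 and 5.84 CPM in KO1-1, KO1-2 and the library labelled KO2-1, against 25.4, 10.7 and 4.98 CPM in parental 1, 2 and 3. Its highest library had 5.10 times the level of its lowest, and both libraries of the first dated pair were high (adjusted p = 0.00111, limma F test).

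The enhancer methyltransferases and the KMT2C and KMT2D partner PAGR1 stood on opposite sides in the undated pair. KMT2C was at 117, 149 and 71.2 CPM in KO1-1, KO1-2 and the library labelled KO2-1, against 133, 137 and 63.1 CPM in parental 1, 2 and 3. KMT2D was at 55.8, 69.0 and 38.5 CPM in the same UBR7KO libraries, against 62.2, 59.7 and 39.9 CPM in the parental libraries. Both, like KMT2A, were lowest in the 2 undated libraries. PAGR1 was highest there, at 60.9, 66.7 and 113 CPM in KO1-1, KO1-2 and the library labelled KO2-1, against 48.5, 66.8 and 115 CPM in parental 1, 2 and 3. The adjusted p of the limma F test was 0.00189 for KMT2C, 0.010 for KMT2D, 0.00526 for KMT2A and 0.00228 for PAGR1. KMT2D overlaps PRKAG1 and PAGR1 overlaps MVP on the same strand, which could split their reads. Of the 36 genes, the core subunit ASH2L had the smallest range, 1.10-fold, at 48.0, 47.0 and 44.9 CPM in the UBR7KO libraries, against 44.8, 43.7 and 45.4 CPM in the parental libraries.

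**Figure D5:**
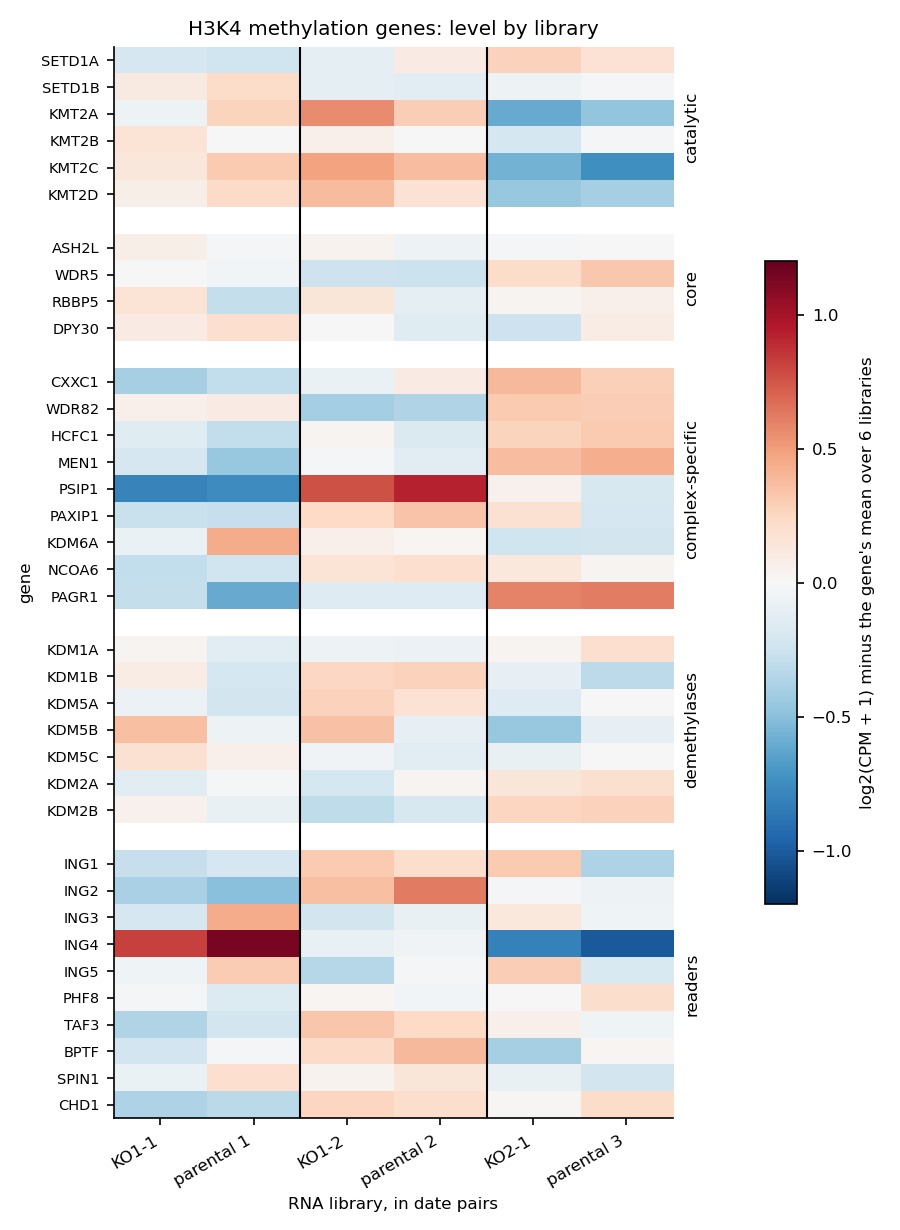
Level of each of the 36 H3K4 methylation genes in 6 RNA libraries, as log2(CPM + 1) minus the mean of the gene over the libraries (red above, blue below), with the libraries in date pairs, UBR7KO left of parental. PSIP1, ING4, KMT2C and PAGR1 change colour between pairs more than within a pair.

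Partners and other genes of the pathway were taken from 8 lists of 85 genes, of which 82 were tested. The lists hold other methyltransferases reported to act on H3K4 (4 tested), partners of KDM1A (12), the SIN3 partners of ING1 and ING2 (11), the NuA4 partners of ING3 (11), the KAT6 and KAT7 partners of ING4 and ING5 (10), the NURF and TFIID partners of BPTF and TAF3 (12), other readers of methylated H3K4 (12) and the H2B ubiquitin ligase with the PAF1 complex (10). Over all 6 libraries none of the 82 was called, and their median log2 change was 0.03, against 0.01 over all genes. In KO1 against same-date parental cells 1 of the 82 was called higher and none lower, against 2.23% and 1.36% of all genes. In the comparison of the KO2 pair with the KO1 pairs 1 was called higher and 1 lower, against 1.71% and 3.32% of all genes. These counts are no larger than the background.

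SMARCA1, an ATPase that works with BPTF in the NURF remodeler, was the gene of these lists called higher in KO1. It was at 227, 297 and 80.0 CPM in KO1-1, KO1-2 and the library labelled KO2-1, against 137, 219 and 136 CPM in parental 1, 2 and 3. It was higher in each KO1 library than in the parental library of its date, and lower in the library labelled KO2-1 than in parental 3. In the dated pairs its log2 change reached 0.58 (SE 0.12, limma adjusted p = 0.00837), and the change in the KO2 pair differed from it by −1.34 (SE 0.21, limma adjusted p = 0.000167). GSE1, a partner of KDM1A, was at 64.5, 58.8 and 67.1 CPM in KO1-1, KO1-2 and the library labelled KO2-1, against 75.1, 63.3 and 39.8 CPM in parental 1, 2 and 3. The undated pair differed by 0.74, and the difference from the KO1 pairs was 0.90 (SE 0.21, limma adjusted p = 0.0103).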

How the data were processed

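The members and gene lists were chosen with earlier results of these data known. The RNA table holds CPM per library that the authors deposited, scaled to a library total with no further factor. Every CPM was a whole multiple of the value of 1 read within 1e-06 (100% of values in each library), which gave whole reads for the count tests. The authors' log2 fold changes, mean log2 CPM and p-values, deposited in that table, come from a likelihood ratio test per the file headers. ATAC broad peaks, deposited with −log10 q, were called by the authors per library, and the scores of the deposited GFP-UBR7 peaks and of the replicate-intersected ATAC regions have no stated scale. Per the submitters' processing notes, tools included HTSeq 0.6.1, TopHat2 2.1.0, MACS2, Bowtie2 2.3.1 and edgeR, with builds hg19 and hg38, and no roles are given. Positions are GRCh37-type, counted from 1. Of the 36 gene IDs, 34 have the same symbol in the gene name table, and KMT2B and PAGR1 carry older IDs.

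Computations used limma 3.58.1, edgeR 4.0.16 and DESeq2 1.42.0 in R 4.3.3 and Python 3.11.15, tested on simulated data. The main test was limma (trend and robust options of its empirical Bayes step) on log2(CPM + 1), which understates the change of low genes. Same-pair libraries deviated together, with correlations across genes of 0.758, 0.736 and 0.633, against −0.443 to −0.251 for other pairings, and the date codes give the pairing of the dated libraries. Deviations were taken from the group mean, so they cancel within a group, which pushes the values of other pairings down. The value of 0.633 for the undated pair is thereby fixed by the deviations of the dated libraries and cannot test that pairing. Values in every library are given for genes called in a test, past 1.5-fold in the undated pair or in both dated pairs, or with the lowest p of a role group, and the genes named for date pairs were picked with their values in view. The usable gene length was not known, so levels are not compared between genes. Alternatives were other pseudocounts, no filter on low values, TMM, count tests, the block, each library left out, and other windows and thresholds for peaks.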

Additional observations from a re-analysis of the deposited data

Results flagged for a closer look

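The change of KDM5B in the KO2 pair minus its change in the KO1 pairs was −0.79 on the log2 scale, a difference between lines that passed the test of the difference itself (limma adjusted p = 0.0193). KDM5B was lower in the library labelled KO2-1 than in parental 3 and higher in both KO1 libraries than in the parental libraries of their dates. ING5 differed by 0.82 (limma adjusted p = 0.0477), with the opposite signs. UBR7 differed by 1.15 (limma adjusted p = 0.00176), with no lower level in the library labelled KO2-1. All 3 differences rest on 1 KO2 library, and the line and the undated preparation cannot be told apart.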

How the results depend on the processing

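Line KO2 has 1 library, the GFP-UBR7 peaks come from 1 ChIP library, and the ATAC lists differ in length, which limits what each can show. The count of 0 of the 36 genes called over 6 libraries stayed at 0 under all 15 alternatives, the replicate block of date pairs (0) and leaving out each library (0 to 0) included. Over all genes these alternatives called 7 with DESeq2, 4 with the block and TMM scaling together, and 0 otherwise. A count of 0 is thus near the background and is not particular to the 36 genes. In KO1 against parental cells of the same date the count of 1 became 0 with TMM scaling, edgeR's quasi-likelihood test, DESeq2 and no replicate block, and stayed at 1 with pseudocounts of 0.1 and 5, no filter, and all 6 libraries in the fit. For all genes the count of 491 became 171 with DESeq2 and 0 without the block. Fits without 1 library could not keep the block, so they changed 2 choices at once and do not part the library from the block (0 to 0 of the 36 genes, 1 to 20 of all genes). The comparison of the KO2 pair with the KO1 pairs called 2 genes in 5 of 6 alternatives and 0 with DESeq2. Over all genes it called 689 in the main setting, 697 to 794 in those 5 alternatives and 223 with DESeq2. Leaving out 1 dated pair there left no residual degree of freedom and was not run. ING1 was below 1.5-fold in the undated pair at a pseudocount of 5, which gave 0 genes. The date pairs differed for 18 of the 36 genes at pseudocounts of 1 and 0.1, against 6739 and 6644 of all 13697 genes. They differed for 21 with TMM scaling and with edgeR's quasi-likelihood test, against 6299 and 6157 of all genes. The causes of these changes were not tested. Starts with an ATAC peak in all 4 libraries numbered 20 to 30, against 46.7% to 68.1% of all genes. With 1 library left out they numbered 25 to 30, against 51.9% to 68.1%. At −log10 q of at least 5 they numbered 0, and 0.0212% of all genes passed. Starts with a GFP-UBR7 peak numbered 13 to 21, against 19 in the main setting. They numbered 13 at 500 bases and 21 at 2500 bases either side, against 21.1% and 26.5% of all genes. Peaks at or above the median score gave 14 and at least 200 bases of overlap gave 13, against 14.7% and 14.8%. The UBR7 difference in mean CPM, −20.5, ran from −33.1 to −14.0 with 1 library left out.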

Other observations

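Some GFP-UBR7 peaks lay in or near these genes but outside 1000 bases of the annotated start. KDM2B had one with a score of 137.61 in its body, its middle at position 113905 from the annotated start, above the 50.62 at that start. HCFC1 had one with a score of 109.28 over its last bases (chrX:153212765-153213108), close to the 109.46 at its start. CHD1 had peaks with scores of 77.34 and 50.12 before its start, with middles at positions −2366 and −1769, and its nearest ATAC peak was 1546 and 1511 bases away in UBR7KO 1 and 2, against 2255 and 1524 bases in parental 1 and 2. ING1 had 2 peaks after its start, with scores of 66.59 and 53.43. Which start these cells use is not shown by these files.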
